A study of Mus musculus with 2 samples.

Results

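The axon guidance ligands and receptors of the mouse stomach at embryonic day 14.5 were examined as a set of 71 genes, of 21474 protein-coding genes in the deposited gene tables. The set was taken by gene symbol alone. It holds the ephrins (Efna, Efnb) and their Eph receptors, the semaphorins of classes 3 to 7 with the neuropilins and plexins, the Slits and Robos, and the netrins and netrin-Gs with Dcc, Neo1 and the Unc5 receptors. By signalling system these were 14 ephrin-A and EphA genes, 8 ephrin-B and EphB genes, 31 semaphorin-system genes, 7 Slit and Robo genes and 11 netrin-system genes. Another symbol that the rule takes, Ntn3, was not analysed here.

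Guidance cues are secreted or membrane-bound proteins that attract or repel growing axons and migrating cells through receptors on the growth cone. Ephrin-A ligands are held on the membrane by a lipid anchor and ephrin-B ligands span it, and both can signal backwards into the cell that bears them. The same families act outside neurons, in the sorting of epithelial cells, the growth of blood vessels and the migration of neural crest cells. In the gut the enteric nervous system arises from such crest cells, and netrins and semaphorins are known cues for its precursors and for nerves that enter from outside.

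RNA-seq had been made from the total RNA of stomachs of B6NCrl mouse embryos, age 14.5 days, with no treatment and no altered allele in the labels. The only group held 2 libraries, each labelled as the stomach of a single pup, although both sexes are named as pooled in the labels. Both libraries carry the same donor label and the same pup wording with different collection dates, so whether they came from different embryos or litters cannot be told from the labels. The starting quantity was 10 ng, RNAs over 200 nt were kept, and spike-in RNAs had been added. No second condition was available, so values are given for both libraries and no test between conditions was made. Where a pair of values is given, replicate 1 comes first and replicate 2 second.

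Total expected counts, which are estimated read numbers, were 25072242 and 25599910 per library. Of these, 23668322 and 23882647 fell on genes and 71610 and 70319 on the guidance genes, or 0.303% and 0.294% of gene counts. Spike-ins took 12.1% and 14.2% of all TPM (the deposited level, scaled for transcript length and depth), which lowered every other TPM in proportion. Markers of the cell types expected in a stomach wall were present in both libraries. All 10 markers of enteric neurons (led by Uchl1, Stmn2 and Gap43) were at TPM 1 or more in both, with summed TPM of 410.1 and 401.4. The same held for 7 of 7 crest and glial markers (Ednrb, Fabp7, Erbb3; 202.5 and 185.3), 12 of 12 endothelial (Egfl7, Plvap, Esam; 327.9 and 302.3), 10 of 10 epithelial (Krt8, Krt18, Krt19; 2126 and 1874) and 8 of 8 smooth muscle markers (Acta2, Actg2, Tagln; 3947 and 3719). It also held for 8 of 8 fibroblast (Col3a1, Col1a1, Col1a2; 4407 and 4114), 5 of 5 pericyte (Kcnj8, Pdgfrb, Abcc9; 168.8 and 156.6), 5 of 5 mesothelial (Krt19, Upk3b, Msln; 423.3 and 353.7, of which Krt19, also in the epithelial list, gave 342.8 and 290.3), 6 of 6 macrophage (C1qb, Tyrobp, C1qa; 151.5 and 150.8) and 7 of 7 erythroid markers (Hba-a2, Hbb-bs, Hba-a1; 9056 and 9542). Lymphatic markers reached TPM 1 in both libraries for 3 of 4 genes (Pdpn, Lyve1, Flt4), with sums of 47.5 and 37.0. Exocrine pancreas markers (led by Clps, Pnliprp1 and Ctrb1) stood apart, with a summed TPM of 777.1 in replicate 1 and 44.6 in replicate 2 and 4 of 10 at TPM 1 or more in both. In whole tissue, fewer cells of a type and less RNA per cell cannot be told apart, and no member was assigned to a cell type here.

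Of the 71 guidance genes, 58 reached TPM 1 in both libraries, against 61.8% of all protein-coding genes. Their median TPM was 7.69 and 6.7, where that of all protein-coding genes was 5.23 and 4.86. Among genes that reached TPM 1, the median level of the guidance genes was lower than that of all protein-coding genes, at a mean TPM of 12.4 against 18.4. Levels of 10 TPM or more were seen for 31 members (43.7%) and for 41.2% of protein-coding genes. The set was thus broadly present at moderate levels, and only Plxnb2 passed 100 TPM as a mean of the libraries. The ranges of the 2 libraries overlapped between neighbours from rank 4 to rank 11: Slit2, Nrp1, Ephb4, Sema6a, Nrp2, Efna1, Sema3a and Robo2. The order of neighbours among them was not resolved.

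**Figure D1:**
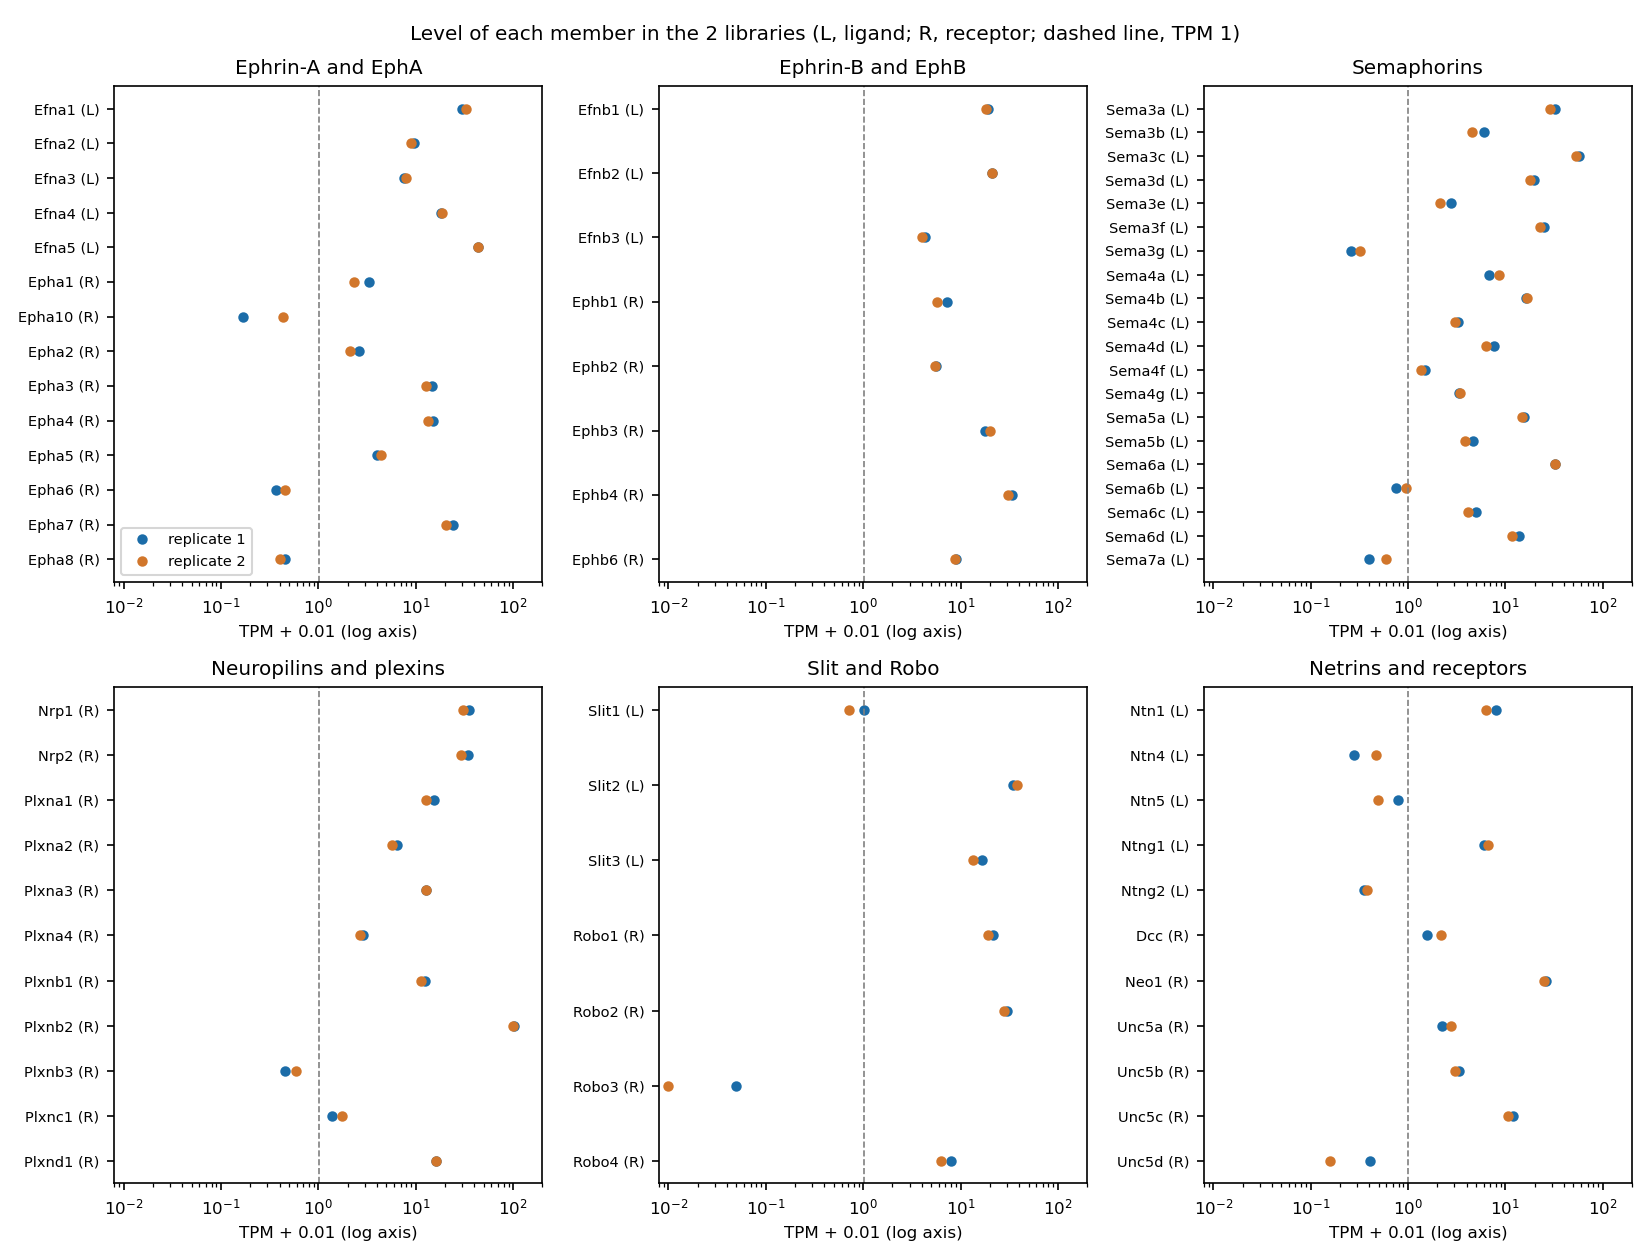
TPM of each of the 71 guidance genes in replicate 1 and replicate 2, with 0.01 added and a log axis, by system, with ligands marked L and receptors R. The dashed line marks TPM 1, which 58 genes reached in both libraries, and Plxnb2 sits highest at 103 and 99.6 TPM.

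In the ephrin-A system all 5 ligands and 6 of 9 receptors reached TPM 1 in both libraries. Efna5, a ligand known for repelling axons in topographic maps, was the most abundant ephrin at 43.3 and 43.2 TPM (2832 and 3032 counts). Efna1, first found as a cytokine-induced endothelial gene, followed at 29.9 and 33.1 TPM (697 and 819 counts). Efna4 stood at 18.3 and 18.6 TPM (463 and 500.4 counts). These 3 ligands differed from each other by more than the gap between the libraries. Efna2 had 9.52 and 8.99 TPM (326 and 327 counts) and Efna3 7.65 and 7.86 TPM (292 and 318 counts).

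Among the EphA receptor tyrosine kinases, Epha7 led at 24.0 and 20.5 TPM (1631 and 1504 counts). Epha4, which binds ephrins of both subclasses, had 15.0 and 13.3 TPM (1118 and 1055 counts), and Epha3 14.9 and 12.6 TPM (1393 and 1255 counts). Epha3 and Epha4 overlapped in range and both lay below Epha7 on gene TPM. On complete coding transcripts (annotated with both ends of the coding sequence) the order differed: Epha3 was at 14.9 and 12.6 TPM, Epha7 at 13.6 and 10.4 and Epha4 at 3.28 and 7.49. The Epha4 value leaves out Epha4-205, which is annotated for nonsense-mediated decay and had 4.85 and 0.37 TPM. Its coding sequence is as long as that of Epha4-201, which had 2.86 and 7.49 TPM. How reads were divided between these transcripts was not tested. Epha5, a neural receptor, was at 4.04 and 4.36 TPM (249 and 251 counts). The receptors known from epithelia were low: Epha1 had 3.27 and 2.33 TPM (175 and 132 counts) and Epha2 2.63 and 2.10 TPM (169 and 143 counts). Epha6, Epha8 and Epha10 stayed below TPM 1 in both libraries, with Epha10 being a family member without kinase activity.

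All 8 ephrin-B system genes reached TPM 1. Efnb2, the ligand that marks arteries, had 21.1 and 21.3 TPM (1505 and 1598 counts), and Efnb1 19 and 18.2 TPM (995 and 1028 counts). Efnb3, known from the midline of the nervous system, was lower at 4.33 and 4.04 TPM (225 and 223 counts). On the receptor side Ephb4, the venous partner of Efnb2, was highest at 34.0 and 31.1 TPM (2405 and 2299 counts), and Ephb3 followed at 17.7 and 20.3 TPM (1215 and 1269 counts). Ephb6, which lacks kinase activity, had 9.03 and 8.72 TPM (342 and 385 counts). Ephb1 was at 7.26 and 5.68 TPM (529 and 452 counts) and Ephb2 at 5.57 and 5.45 TPM (642 and 639 counts). Ephb4 was thus above every other EphB receptor in both libraries.

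Summed over members, ephrin-A ligands held 108.7 and 111.8 TPM and their receptors 64.8 and 56.4, so ligands made up 64.6% ± 2.7 (SD, n = 2) of that system. The ephrin-B system had the opposite balance, with 44.5 and 43.5 TPM of ligands against 73.6 and 71.2 of receptors, a ligand share of 37.8% ± 0.19 (SD, n = 2). The 2 shares lay farther apart than the libraries did within either.

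**Figure D2:**
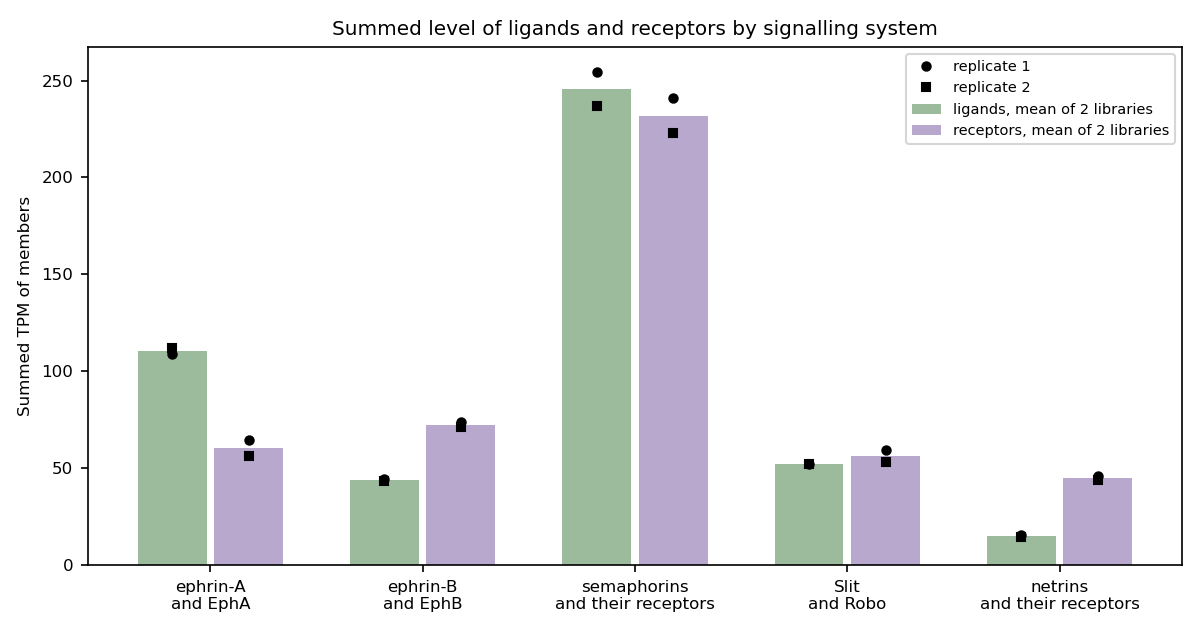
Summed TPM of ligands and receptors in each of the 5 systems, as bars for the mean of the 2 libraries from 0 and points for each library. Ligands exceed receptors in the ephrin-A system (108.7 and 111.8 against 64.8 and 56.4), and receptors exceed ligands in the ephrin-B and netrin systems.

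The semaphorin system held the largest summed level, 254.6 and 237.0 TPM for 20 ligands and 240.9 and 222.8 for 11 receptors, a ligand share of 51.5% ± 0.11 (SD, n = 2). Most of the ligand TPM lay in the secreted class 3, which signals through neuropilin and plexin complexes, with 143.5 and 129.0. Sema3c, known for guiding crest cells into the heart's outflow tract, was the most abundant ligand of the whole set at 57.3 and 53.3 TPM (3924 and 3816 counts). Sema3a, a repellent of sensory and sympathetic axons, stood at 32.4 and 28.4 TPM (2651 and 2610 counts). Sema3f, which acts through Nrp2, had 25.2 and 22.5 TPM (1113 and 1039 counts), and Sema3d 19.7 and 17.9 TPM (2134 and 2057 counts). These 4 genes held nearly all of the class. Sema3b was at 6.02 and 4.50 TPM (279 and 238 counts). Sema3e, which can bind Plxnd1 without a neuropilin, was at 2.77 and 2.10 TPM (295 and 233 counts). Sema3g did not reach TPM 1.

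Of the transmembrane semaphorins, all 6 class 4 genes reached TPM 1. Sema4b led them at 16.2 and 16.8 TPM (875 and 971 counts). Sema4a, known from immune cells, had 6.79 and 8.69 TPM (287 and 390 counts), and Sema4d, a ligand of Plxnb1, 7.69 and 6.39 TPM (519 and 428 counts). These 2 ranges overlapped. Sema4g stood at 3.32 and 3.39 TPM (241 and 265 counts), Sema4c, a ligand of Plxnb2, at 3.27 and 3.05 TPM (144 and 150.3 counts), and Sema4f at 1.47 and 1.36 TPM (99 and 95 counts). In class 5, which carries thrombospondin repeats, Sema5a had 15.7 and 14.8 TPM (2833 and 2829 counts) and Sema5b 4.62 and 3.80 TPM (272 and 251 counts). Class 6 was led by Sema6a, a ligand of Plxna2 and Plxna4, at 32.2 and 32.2 TPM (2009 and 2014 counts). Sema6d, a ligand of Plxna1, had 13.8 and 11.8 TPM (1341 and 1229 counts), and Sema6c 4.95 and 4.17 TPM (241 and 234 counts). Sema6b and the lipid-anchored Sema7a stayed below TPM 1 in both libraries.

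The 2 neuropilins, co-receptors for class 3 semaphorins and for vascular endothelial growth factors, were close to each other. Nrp1 had 35.4 and 30.7 TPM (3464 and 3187 counts) and Nrp2 34.4 and 29.1 TPM (3120 and 2841 counts). Among the plexins, the signalling receptors that act on small GTPases, Plxnb2 stood far above the rest at 103 and 99.6 TPM (5145 and 4908 counts), a mean level higher than that of 93.7% of protein-coding genes. Plxnb1 had 12.6 and 11.5 TPM (1586 and 1419 counts), and Plxnb3 was below TPM 1. In the plexin-A group, Plxna1 was at 15.3 and 12.8 TPM (2300.2 and 2037 counts) and Plxna3 at 12.7 and 12.7 TPM (939 and 969 counts). They were close to each other in replicate 2 on gene TPM only. On complete coding transcripts Plxna3 was at 6.32 and 5.47 TPM, below Plxna1 at 15.3 and 12.8. Plxna2 had 6.45 and 5.65 TPM (1068 and 1042 counts) and Plxna4 2.84 and 2.67 TPM (612 and 610 counts). Plxnd1, the endothelial receptor for Sema3e, was at 16.1 and 16.0 TPM (1850 and 1948 counts), well above its ligand. Plxnc1, the receptor for Sema7a, was at 1.38 and 1.72 TPM (161 and 214 counts).

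In the Slit and Robo system, Slit2 was the main ligand at 34.6 and 38.0 TPM (2445 and 2665 counts), followed by Slit3 at 16.6 and 13.4 TPM (878 and 756 counts). Slit1, known mainly from the brain, was at 1.02 and 0.710 TPM (65 and 58 counts) and so crossed TPM 1 in replicate 1 only. Of the receptors, Robo2 had 29.7 and 27.9 TPM (2113 and 2090 counts) and Robo1 21.6 and 19.0 TPM (2711 and 2543 counts), which placed Robo2 higher in both libraries on the gene scale. Robo4, the endothelial member, stood at 8.02 and 6.35 TPM (492 and 424 counts). Robo3, known from commissural axons, had 3 counts in replicate 1 and 0 in replicate 2, where 0 allows up to 3 counts. Its neighbour Robo4 ends 0.55 kb away on the opposite strand. The ligands held 46.8% and 49.5% of the summed TPM of the system.

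The netrin system was the lowest, with 15.4 and 14.3 TPM of ligands and 46.0 and 43.7 of receptors, a ligand share of 24.9% ± 0.32 (SD, n = 2). Netrin-Gs held 6.35 and 7.07 TPM of the ligand sum, although their partners Lrrc4c and Lrrc4 are not among the receptors summed. Ntn1, the classical netrin, had 8.02 and 6.29 TPM (560 and 547 counts). Ntng1, a lipid-anchored relative that binds Lrrc4c and not Dcc, had 6.01 and 6.70 TPM (296 and 303 counts). Ntn4, Ntn5 and Ntng2 were below TPM 1 in both libraries. Neo1, which binds netrins and repulsive guidance molecules, was by far the most abundant receptor at 26.4 and 24.9 TPM (3239 and 3250 counts). Its relative Dcc, the attractive netrin receptor, was at 1.56 and 2.17 TPM (128 and 187 counts). Among the repulsive Unc5 receptors, Unc5c led at 12.1 and 10.7 TPM (1213 and 1409 counts), then Unc5b at 3.36 and 3.05 TPM (326 and 314 counts) and Unc5a at 2.23 and 2.76 TPM (141 and 184 counts), and Unc5d did not reach TPM 1. Unc5a overlaps Hk3 on the opposite strand, which had 46 and 38 counts. Neo1 thus exceeded Dcc, and Unc5c the other Unc5 genes, in both libraries.

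The 13 genes below TPM 1 in at least 1 library ranged from 0 to 65 counts and from 0 to 1.02 TPM. None had 0 counts in both libraries, so each was sampled but scarce. They were 3 EphA receptors, 3 semaphorins, 1 plexin, Slit1, Robo3, 3 netrin-type ligands and Unc5d. At an expected count of 10 or more in both libraries 69 genes passed, all but Robo3 and Ntng2. The share of all protein-coding genes at this lower minimum was not taken, so the 69 have no background beside them. Ntng2 shares its strand with the overlapping 6530402F18Rik, which had 9.29 and 8.54 counts beside 6.71 and 7.46 for Ntng2. Ntn5 overlaps Sec1 on the opposite strand, which had 144.3 and 176.9 counts beside 19.8 and 13.4. Strand could not separate the Ntng2 pair, which lies on the same strand. Whether counting used strand is not stated, and the counts of Ntn5 and Sec1 are fractional, as estimates shared between genes can be. Reads of these pairs cannot be told apart here.

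Gene levels sum all annotated transcripts, some of which cannot encode the receptor or ligand. Transcripts were therefore split into complete coding ones, annotated as protein-coding with both ends of the coding sequence, and all others. Complete coding transcripts held 76.1% and 75.0% of the members' TPM and 90.1% and 89.9% of their expected counts. Retained-intron transcripts held 10.9% and 13.6% of TPM, and processed transcripts without a coding sequence 8.79% and 8.06%. Over the 46 members at TPM 1 with 2 or more transcripts, the median coding share of TPM was 84.7% and 81.7%, beside 86.2% and 85.5% for all protein-coding genes treated alike. The median member was thus close to other genes, and a few abundant members lay lower.

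Plxnb2 was the clearest case. A processed transcript of 841 nt, Plxnb2-205, held 58.8% and 55.4% of the gene's TPM from 759 and 732 counts, while the 6377-nt coding Plxnb2-202 held 38.5% and 36.6% from 4210.4 and 4091 counts. Complete coding transcripts had 40.1% and 36.6% of the TPM but 85.1% and 83.4% of the counts, since a short transcript gains TPM per read. On coding transcripts alone Plxnb2 was at 41.4 and 36.4 TPM and Efna5 at 43.3 and 43.2, which put Efna5 first and Plxnb2 second in the set. Sema3c-201 held 61.7% and 59.7% of Sema3c, and the retained-intron Sema3c-205 31.0% and 32.5%. Sema3c took rank 3 on the coding scale at 35.3 and 31.8 TPM, a range that overlapped that of Nrp1 at 35.4 and 30.7.

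Slit2 and Robo2 ranked much lower on the coding scale than on the gene scale. The coding Slit2-202 held 35.6% and 33.4% of Slit2 TPM and the retained-intron Slit2-207 34.9% and 34.6%, and the complete coding share was 39.4% and 38.0%. By mean TPM, Slit2 went from rank 4 on the gene scale to rank 20 on the coding scale, at 13.6 and 14.5. Genes of neighbouring rank can overlap in range. For Robo2 the retained-intron Robo2-209 held 36.8% and 40.4% and the coding Robo2-202 19.7% and 24.7%. Robo2-201, with 8.76% and 6.27%, was counted outside the coding scale. It is 4764 nt long in the quantification but 886 nt in the later annotation that gave the transcript types, which limits the coding rank of Robo2. Robo2 went from rank 11 to rank 28, at 9.28 and 8.91 coding TPM, so that Robo1 exceeded it on that scale at 21.6 and 19.0. Robo1 has 1 annotated transcript, as do Nrp1 and Neo1, which fixes their coding share at 100%, and the reversal of the 2 Robos thus depends on the annotation. Sema6a went from rank 7 to rank 19: the retained-intron Sema6a-209 held 26.9% and 27.6% and Sema6a-208 21.8% and 24.95%, and the coding Sema6a-201 24.0% and 22.8%.

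**Figure D3:**
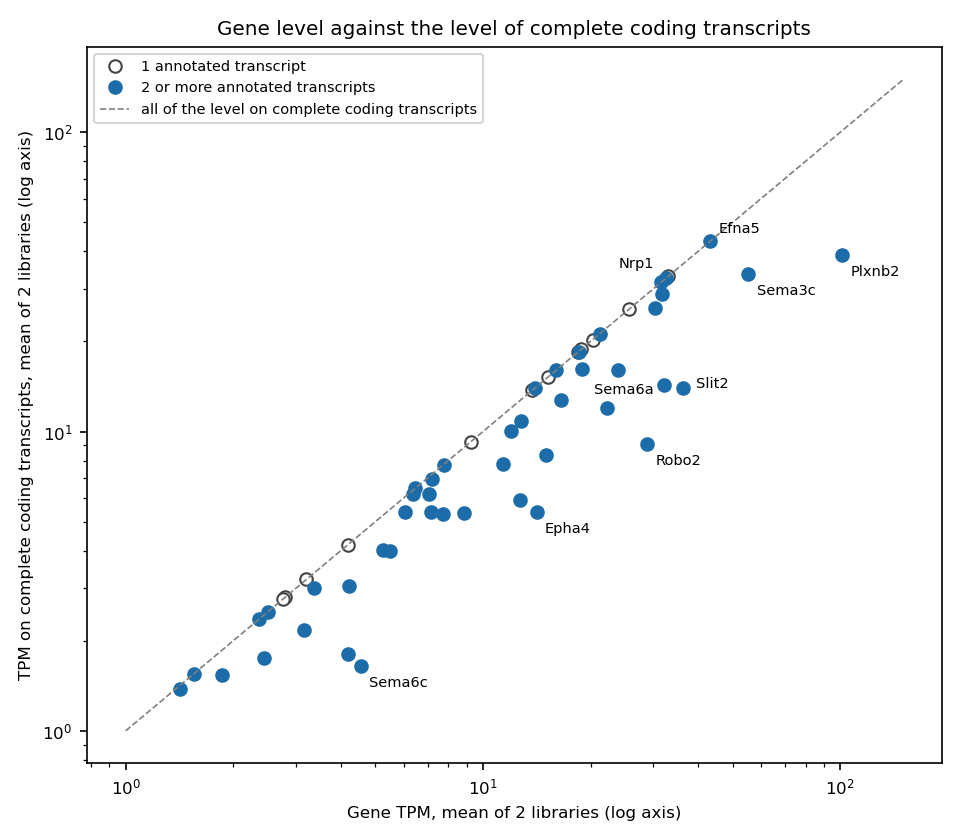
Mean TPM of each of the 58 genes at TPM 1 or more, as the whole gene (x) and on complete coding transcripts only (y), both on log axes. Genes on the dashed line have their whole level on coding transcripts, as the 12 with 1 annotated transcript must, and Plxnb2, Slit2, Robo2 and Sema6a lie below it.

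Other abundant members were simpler. Efna1-201 held 100% and 100% of Efna1, and Efna5-201 98.4% and 99.7% of Efna5. For Ephb4, the main Ephb4-201 held 84.6% and 72.8% and Ephb4-202 8.43% and 18.9%. Sema3a-201 held 65.2% and 75.4%, and Sema3a-202, which has a coding sequence of equal length, 19.3% and 10.9%. Sema3f-201 held 56.5% and 56.0% of Sema3f, with 15.1% and 11.1% on Sema3f-208, annotated for nonsense-mediated decay. Ntng1 was divided between Ntng1-208 at 47.7% and 42.3% and the 327-nt Ntng1-201 at 39.1% and 52.4%, the latter from only 9.03 and 14.3 counts. Over the 46 members, the leading transcript was the same in both libraries for 36. The transcript that led by its mean share over the libraries was complete coding for 41. The same counts were not taken over all genes, so these have no background beside them.

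Splicing changes what several of these receptors carry, and segments that differ are shown next for some of the members where coding transcripts split. In each line the capitals are the segment that only some coding transcripts hold, or its first 45 bases where it is long, and the lower-case bases are its neighbours in the transcript. Sequences are the mm10 transcript strand from 5′ to 3′. Shares are percent of the TPM of a gene's complete coding transcripts. They rest on how the deposited quantification divided reads between overlapping transcripts, with no count of junction reads. Some transcripts of Slit2, Robo2, Robo4 and Dcc have other lengths in the later annotation that gave the transcript types, so no segments are shown for these genes. Sema5b, Unc5a and Ntng1, among others, also split and are not shown. An 87-base segment of Sema5b was held by 34.2% and 13.0%.

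Nrp2 has 2 alternative ends, which give the receptor different transmembrane and cytoplasmic parts known as the a and b forms, and a 15-base extension and a 51-base exon before them.
Nrp2 15-base extension, chr1:62786302-62786316, plus strand: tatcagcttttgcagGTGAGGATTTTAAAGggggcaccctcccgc
Nrp2 b end, chr1:62795709-62795986, plus strand: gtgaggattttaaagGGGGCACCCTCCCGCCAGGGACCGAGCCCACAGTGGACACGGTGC
Nrp2 51-base exon, chr1:62812534-62812584, plus strand: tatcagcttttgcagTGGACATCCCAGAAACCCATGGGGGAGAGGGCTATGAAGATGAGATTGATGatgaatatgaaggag
Nrp2 a end, chr1:62815333-62815634, plus strand: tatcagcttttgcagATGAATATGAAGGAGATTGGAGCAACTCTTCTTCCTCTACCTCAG
The b end was held by 54% and 50.4% of Nrp2 coding TPM and the a end by 46% and 49.6%. Both forms were thus present at similar levels in both libraries. The 51-base exon was rare, at 5.85% and 5.74%. The 15-base extension was held by 50.9% and 28.8%, or 55.5% and 38.9% by the deposited posterior mean, and so differed more between the libraries than the ends did. Of single transcripts, Nrp2-201 held 37.3% and 25.4% and Nrp2-204 27.7% and 38.7% of the gene's TPM, and the leading one was not the same in the 2 libraries.

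Epha7 makes a receptor with a kinase domain and truncated forms that lack it and are known to turn repulsion into adhesion. The 12-base extension and both truncated ends follow the same 15 bases.
Epha7 12-base extension of the kinase form, chr4:28947528-28947539, plus strand: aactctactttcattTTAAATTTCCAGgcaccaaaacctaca
Epha7 first exon of the kinase form after the split, chr4:28947540-28947653, plus strand: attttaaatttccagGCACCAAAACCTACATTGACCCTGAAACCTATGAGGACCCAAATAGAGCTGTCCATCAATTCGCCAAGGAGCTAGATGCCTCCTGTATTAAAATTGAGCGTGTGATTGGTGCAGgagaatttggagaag
Epha7 truncated end of 32 bases, chr4:28946219-28946250, plus strand: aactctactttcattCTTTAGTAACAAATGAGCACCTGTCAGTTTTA
Epha7 truncated end of 80 bases, chr4:28966523-28966602, plus strand: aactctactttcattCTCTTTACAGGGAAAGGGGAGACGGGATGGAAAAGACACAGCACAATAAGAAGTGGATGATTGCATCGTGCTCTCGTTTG
Kinase-encoding transcripts held 68.3% and 77.4% of Epha7 coding TPM. The end of 32 bases held 18.7% and 17% and that of 80 bases 12.9% and 5.65%. Truncated forms were therefore a minority in both libraries, and a smaller one in replicate 2. The 12-base extension was held by 64.5% and 74.1%, which is most of the kinase form. Of the gene's whole TPM, Epha7-201 held 36.6% and 37.8% and the non-coding Epha7-208 29.8% and 35.6%.

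Ephb1 has an optional exon at the matching place, after the part that spans the membrane. Where the kinase domain starts relative to this exon was not examined.
Ephb1 123-base exon, chr9:101984082-101984204, minus strand: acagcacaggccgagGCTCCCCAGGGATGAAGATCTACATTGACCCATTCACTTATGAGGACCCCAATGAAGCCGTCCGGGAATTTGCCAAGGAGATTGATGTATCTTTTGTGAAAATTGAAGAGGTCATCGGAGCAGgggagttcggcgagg
It was held by 63.1% and 84.5% of Ephb1 coding TPM. Over the last 114 bases of this exon, Ephb1 and the Epha7 exon above had the same base at 81 positions (71.1%), aligned without gaps. The 2 receptors thus carry related sequence there and both hold it in most of their coding TPM.

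Ephb2 differs by single codons in its coding transcripts.
Ephb2 3-base extension, chr4:136675531-136675533, minus strand: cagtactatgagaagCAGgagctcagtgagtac
Ephb2 other 3-base extension, chr4:136672508-136672510, minus strand: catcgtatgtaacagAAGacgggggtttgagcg
The first was held by 45.2% and 26% and the second by 0% and 7.18% of Ephb2 coding TPM. The transcripts with and without them rest on 157 and 79.2 counts for Ephb2-201, 0 and 16.8 for Ephb2-203 and 437 and 468 for Ephb2-202, which leads at 43.1% and 44.5% of gene TPM. Neither codon was in most of the coding TPM.

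Ephb4, Sema3f, Sema6d and Efna5 each have a segment of whole codons that sets their longer coding forms apart.
Ephb4 27-base extension, chr5:137362363-137362389, plus strand: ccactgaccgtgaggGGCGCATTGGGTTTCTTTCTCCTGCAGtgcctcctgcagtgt
Sema3f 93-base exon, chr9:107691356-107691448, minus strand: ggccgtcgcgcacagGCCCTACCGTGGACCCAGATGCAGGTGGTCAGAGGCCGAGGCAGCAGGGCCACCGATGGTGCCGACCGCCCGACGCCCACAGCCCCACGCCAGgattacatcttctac
Sema6d 57-base exon, chr2:124660705-124660761, plus strand: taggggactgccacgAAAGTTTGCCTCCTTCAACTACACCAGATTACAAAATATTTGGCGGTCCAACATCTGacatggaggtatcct
Sema6d 12-base extension, chr2:124662360-124662371, plus strand: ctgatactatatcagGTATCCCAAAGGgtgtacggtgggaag
Efna5 81-base exon, chr17:62613316-62613396, minus strand: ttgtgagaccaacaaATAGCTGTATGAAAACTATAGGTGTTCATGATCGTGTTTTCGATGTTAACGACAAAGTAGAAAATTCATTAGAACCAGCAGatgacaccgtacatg
In Ephb4 the extension was held by 6.99% and 8.30% of coding TPM, and a 156-base exon near the end of the coding sequence by 91.6% and 81.1%. The Sema3f exon was held by 14.5% and 18.4%. These 2 longer forms were minor. Sema6d kept the 57-base exon in 71.9% and 68% and the 12-base extension in 87.9% and 90%, and a 39-base exon in only 5.88% and 3%. Of the gene's TPM, Sema6d-206 held 55.5% and 53.3%. Efna5 held its exon in 98.4% and 99.7%, so the short ephrin-A5 form was nearly absent.

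**Figure D4:**
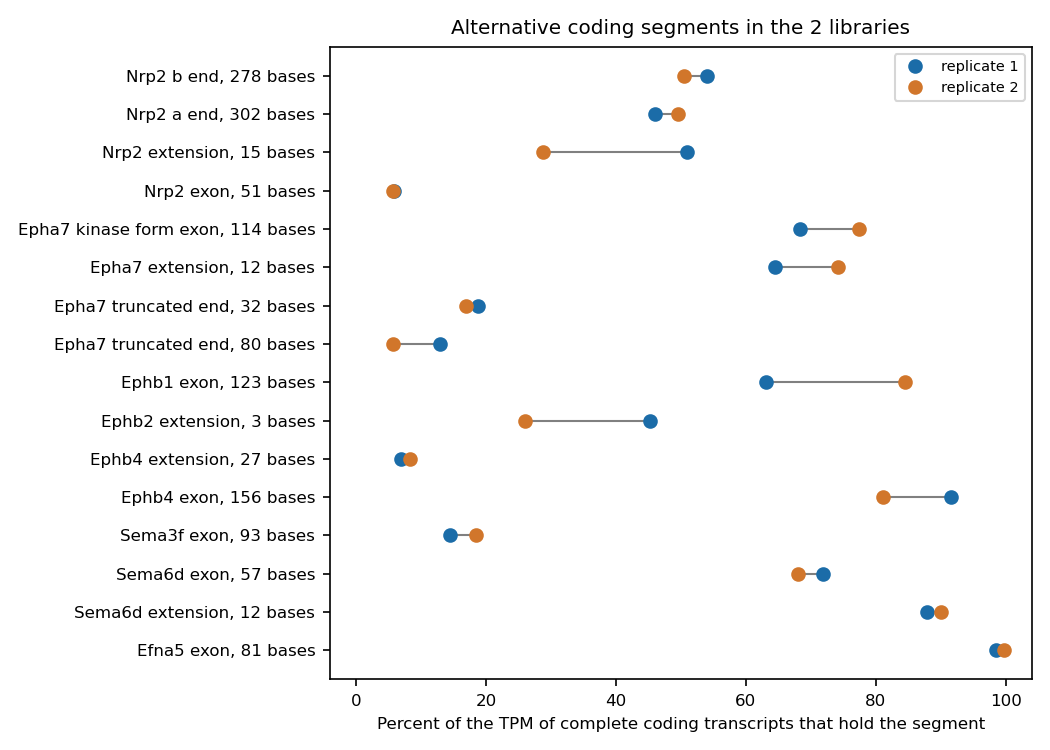
Percent of a gene's complete coding TPM on transcripts that hold each of 16 alternative segments, with replicate 1 and replicate 2 as points joined by a line. Most of these pairs of points lie close together, but the 16 were chosen and leave out wider ones. The widest of the 16 are the Nrp2 15-base extension (50.9% and 28.8%) and the Ephb1 123-base exon (63.1% and 84.5%), then the Ephb2 extension (45.2% and 26%). Segments left out include an 87-base segment of Sema5b (34.2% and 13.0%) and a 333-base segment of Robo4 (89.4% and 28.7%).

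Some other members switched their leading transcript between the libraries, and these were chosen after their values were seen. In Robo4, the coding Robo4-201 held 75.0% and 17.6% and Robo4-203 10.0% and 71.4%. In Epha4, the coding Epha4-201 held 19.1% and 56.5% and Epha4-205, annotated for nonsense-mediated decay with a coding sequence of equal length, 32.3% and 2.76%. Gene totals of both moved far less, at 492 and 424 counts for Robo4 and 1118 and 1055 for Epha4. In Sema4d, Sema4d-201 held 62.5% and 34.6% and Sema4d-203 10.2% and 42.4%, and the 2 have coding sequences of equal length. By the posterior mean the Epha4-201 share was 23.7% and 36.0%, a narrower gap.

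Between the 2 libraries, the log2 ratio of replicate 2 over replicate 1 was taken from expected counts with TMM library sizes. Of 57 members whose counts averaged 100 or more, 0 differed over 2-fold, against 0.298% of all genes at that count, and 0 over 1.5-fold, against 1.25%. The ratios ran from -0.42 to 0.52 with a median of -0.038, 37 members being lower and 20 higher in replicate 2, beside 6424 lower and 5744 higher of all protein-coding genes at that count. Scaled on spike-in counts instead, the members' median was -0.306, so directions are relative to the typical gene. Their median absolute ratio was 0.102, and that of all protein-coding genes 0.093. The guidance genes were thus about as similar between the libraries as other genes. A single library stood on either side, so none of these ratios has a p-value.

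The 5 widest ratios belonged to genes of low to moderate counts. Dcc had 128 and 187 counts (log2 ratio 0.52). Epha1 had 174.9 and 132.4 (-0.42), and it overlaps Zyx on the opposite strand, which had 3243.1 and 3526.6 counts. The counts of both genes are fractional, as estimates shared between genes can be. The part of Zyx reads in the Epha1 value was not tested. Sema4a had 287 and 390 (0.42), Plxnc1 161 and 214 (0.39) and Sema3e 295 and 233 (-0.36). None of the 5 reached 1.5-fold.

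At a mean count of 10 or more, where 3.6% of all genes differed over 2-fold, 1 of 69 members did. Unc5d had 60 and 23 counts, a log2 ratio of -1.39 with a 95% exact binomial (Clopper-Pearson) interval of -2.17 to -0.69 that covers counting error only. Its level was below TPM 1 in both libraries. Exocrine pancreas markers were also lower in replicate 2, by a median log2 ratio of -7.28 over the 7 genes averaging 100 counts or more, all 7 over 2-fold. Their part in any member's value was not tested. Median log2 ratios were -0.46 for lymphatic, -0.264 for mesothelial (all 5 lower), -0.115 for epithelial, -0.092 for pericyte and -0.09 for endothelial markers. They were -0.055 for fibroblast, -0.054 for smooth muscle and -0.05 for crest and glial markers. Enteric neuron and macrophage markers, each at 0.036, and erythroid markers at 0.092 went the other way. The part of these cell types in any member's value was not tested either.

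**Figure D5:**
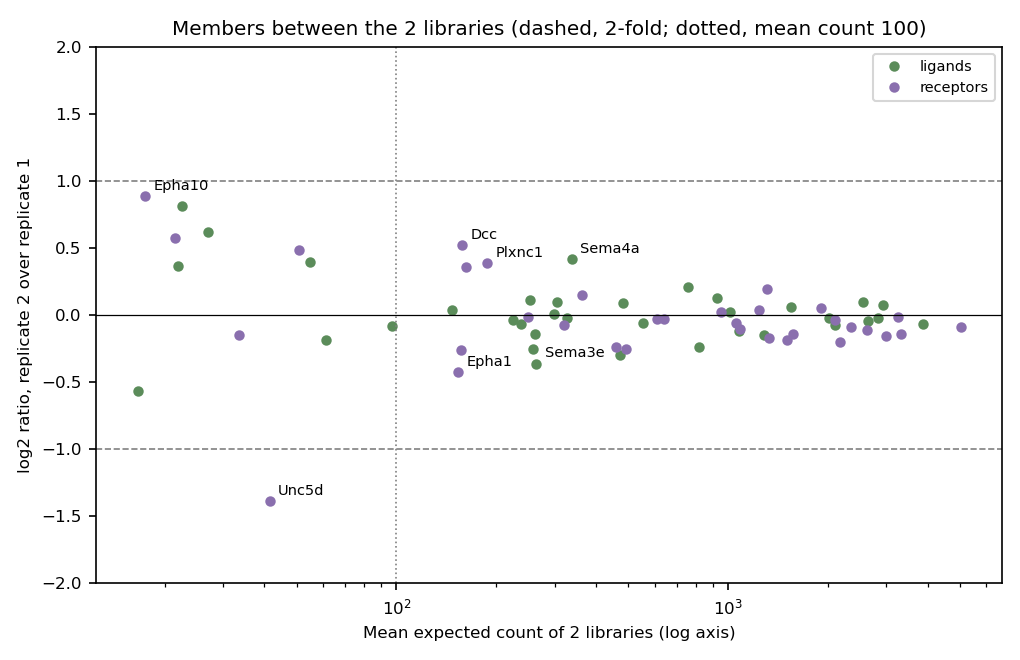
Log2 ratio of replicate 2 over replicate 1 for the 69 members with a mean expected count of 10 or more, against that count on a log axis, with ligands and receptors in different colours. All members right of the dotted line at 100 counts lie between -0.42 and 0.52, inside the dashed 2-fold lines, and Unc5d lies outside at -1.39.

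Genes on 4 lists of further ligands, co-receptors, effectors and proteases were also examined. Of all protein-coding genes, 61.8% reached TPM 1 in both libraries. Of 19 further ligands and ligand-side proteins, 18 reached TPM 1 in both libraries, led by the glypican Gpc3 at 615 and 553 TPM, the chemokine Cxcl12 at 140.1 and 132 and the repulsive guidance molecule Rgmb, a Neo1 ligand, at 50.8 and 46.8. Of 20 co-receptors, 16 did, led by the integrin Itgb1 at 280.2 and 234, the adhesion molecule Ncam1 at 58.5 and 58.4 and the GDNF co-receptor Gfra1 at 46.9 and 48.2. Lrrc4c, the Ntng1 partner, had 5.81 and 5.61, while Lrrc4, the Ntng2 partner, had 0.240 and 0.640, and both were picked after their values were seen. Of 52 intracellular effectors 51 reached TPM 1, led by the actin-severing Cfl1 at 1822 and 1779.9 and the GTPases Cdc42 at 547 and 521 and Rac1 at 298 and 261, and Rnd1 alone did not. All 10 proteases of the list did so, led by the matrix metalloproteinases Mmp2 at 133 and 119 and Mmp14 at 113 and 108. None of the genes of these 4 lists averaging 100 counts or more differed over 2-fold between the libraries. Over all genes at that count 0.298% did, so none in lists of this size is near that share. The median log2 ratios of the lists, in the order given, were -0.009, -0.026, -0.038 and -0.075.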

How the data were processed

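The authors deposited, for each of the 2 libraries, a gene table and a transcript table. Per the labels and deposited notes, reads were quantified on mm10 with GENCODE M4. The aligner, the counting program and the use of strand are not given in the sources that were used. Deposited expected counts are estimated reads per gene or transcript, not normalized. Deposited TPM values are scaled for length to a total that includes spike-ins, and the posterior mean TPM column served as an alternative. Deposited percent values say how a gene's TPM divides among its transcripts.

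Symbols, positions and transcript types were joined from GENCODE M21 on the same build. Of 43346 Ensembl genes, 42462 had a symbol. Another 26248 numbered entries, with 15.47 and 25 counts, and 97 control sequences stayed out of library sizes. Ratios used TMM library sizes (edgeR 4.0.16, R 4.3.3) over all genes, with 0.5 added to each count. Genes at TPM 1 or more in both libraries were called present. The SD over 2 libraries measures only the spread between these samples, which may be technical, since the labels do not settle whether they are different embryos. Intervals and floors of 3 counts cover counting error only, since PCR reads without molecular identifiers are not independent molecules. The procedure was tested on simulated data.

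All members at TPM 1 in both libraries are named, with the 5 widest ratios, transcripts of the 12 most abundant genes with several transcripts and of Nrp1, Nrp2, Neo1, Robo1, Epha7, Ephb2, Efna5, Sema6d and Ntng1, and the 3 most abundant genes of each list. One gene that this rule takes is not reported here. Segments of Ephb1 were chosen after their values were seen. The members and lists were chosen with earlier results of these data known. Of the list symbols, Hjv and Grb4 were not matched. Alternatives were other minimums, DESeq2 1.42.0 size factors, spike-in scaling, posterior means, TPM without spike-ins and mitochondrial genes, each library alone and, added after the data were seen, complete coding transcripts.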

Additional observations from a re-analysis of the deposited data

How the results depend on the processing

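The number of members at TPM 1 in both libraries (58) stayed between 55 and 69 under every alternative run, and 58 to 59 with each library alone. The share of all protein-coding genes was taken at the main minimum only. The median member TPM of 7.2 became 8.28 with posterior means, 8.63 without spike-ins and mitochondrial genes and 5.74 on complete coding transcripts, and 6.7 to 7.69 with each library alone. On coding transcripts the ligand share became 73.95% (ephrin-A), 40.36% (ephrin-B), 53.11% (semaphorins), 38.81% (Slit) and 23.78% (netrins). With posterior means it became 37.54% (ephrin-B), 52.67% (semaphorins) and 26.7% (netrins). With each library alone it ranged over 62.68 to 66.47%, 37.66 to 37.93%, 51.39 to 51.54%, 46.8 to 49.48% and 24.66 to 25.11% in the order ephrin-A, ephrin-B, semaphorins, Slit, netrins.

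The number of members over 2-fold between the libraries was 0 with DESeq2 size factors, spike-in scaling, the TPM ratio or 1 added to each count. It was 1 at a mean count of 10 (Unc5d), 2 with no minimum (Unc5d and Robo3) and 1 on counts of complete coding transcripts (Epha4, log2 ratio 1.34). The Epha4 coding counts leave out Epha4-205, which had 508 and 40.8 counts. The median complete coding share of 83.1% became 75.3% with posterior means and 93.3% by counts, and 81.6 to 84.7% with each library alone. Of the 58 single levels, 55 moved by more than the SD without spike-ins and mitochondrial genes (all 58 higher), 28 on coding transcripts and 21 with posterior means. The cause was not tested beyond what each alternative changes. With 2 libraries, an SD has 1 degree of freedom, and members under 100 counts are limited by depth. No paired analysis was possible because there is 1 group.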

Other observations

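Several guidance genes lie near each other in the genome at unequal levels. Gaps were measured between members only, and other genes that may lie between them were not examined. The cases below are examples, and other nearby members were closer in level. Robo1 and Robo2, 845.7 kb apart on chromosome 16, were at 21.6 and 29.7 TPM in replicate 1. On chromosome 5, the members Sema3d, Sema3a and Sema3e lie in that order on the plus strand with gaps of 536.5 and 422.7 kb. Their TPM in replicate 1 was 19.7, 32.4 and 2.77. On chromosome 3, Efna1, Efna3 and Efna4 lie within gaps of 32.8 and 10.4 kb on the minus strand, at 29.9, 7.65 and 18.3 TPM in replicate 1 and 33.1, 7.86 and 18.6 in replicate 2. Sema3b and Sema3f, 72.3 kb apart on chromosome 9, were at 6.02 and 25.2 TPM in replicate 1. Ephb2 and Epha8, 93.4 kb apart on chromosome 4, were at 5.57 and 0.45. Members were also long genes, with a median span of 58.5 kb against 17.7 kb for all protein-coding genes.

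Promoters of 61 members (250 bases before to 50 after the start, RefSeq, GRCm38.p6) had a median GC content of 64.7%, against 57.0% over 16317 promoters. A ratio of observed to expected CpG of 0.6 or more was found in 65.6% of the members' promoters and in 50.3% of all. The letters TATAAA, searched on both strands, occurred in 2 of the 61 (3.28%), those of Slit2 and Efnb2, and in 12.6% of all. These are descriptions of sequence, with no measure of promoter use in these data.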
